A study of Rattus norvegicus with 16 samples.

Results

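The 10 genes described here, Atf3, Jun, Sox11, Gap43, Sprr1a, Gadd45a, Ecel1, Stmn4, Flrt3 and Reg3b, are known to be raised in sensory neurons whose peripheral axon has been cut. They were chosen by name for that property and are 10 of the 21021 genes with a value in each sample. They were measured by RNA-seq in dorsal root ganglia (DRG), where the cell bodies of sensory neurons lie, to ask whether a tumor in the tibia is accompanied by the response that a cut axon evokes. The adult female Sprague-Dawley rats received tumor cell implantation (TCI), an injection of Walker-256 mammary gland carcinoma cells into the left tibia, and the ipsilateral L3, L4 and L5 ganglia of one rat formed one sample. There were 4 samples each at TCI day 1, TCI day 7 and TCI day 14, and 4 sham samples at day 14. By the labels the sham injection was PBS, and by the methods of the study it was boiled tumor cells. Day 1 sample 2 and day 7 sample 3 were left out by the study. The main values below therefore rest on 14 samples, with 4 sham, 3 day 1, 3 day 7 and 4 day 14 samples, and the values of the samples left out are given beside them. Because sham ganglia were taken at day 14 alone, tumor and time since surgery cannot be told apart for days 1 and 7. No group with a cut nerve is among the samples, so none of them shows the level of these genes after axotomy.

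When a peripheral axon is cut, loss of signals carried back from the target and injury signals carried from the cut end switch on transcription factors such as ATF3, c-Jun and SOX11 in the neuron's nucleus. These act with each other on genes for axon growth, including Gap43 and Sprr1a, while genes of the mature sensory neuron, such as neurofilaments and ion channels, are lowered. In the DRG, Atf3 is widely used as a label of neurons with a damaged axon because intact ganglia hold little of it.

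None of the 9 genes with enough signal for the test, all but Sprr1a, passed the cut-offs of the study at any day after TCI. These are an absolute log2 fold change of at least 1 with an adjusted p of at most 0.001. Of all genes tested they called 0% at day 1, 1.83% at day 7 and 0.642% at day 14. These cut-offs were applied to the test made here, which differs from the test of the study. Of the 9 genes, Jun at day 7 and Gadd45a at day 14 passed an adjusted p of 0.05 with no fold limit. Both rose by less than 0.3 on the log2 scale. By that rule 14.5% of all genes tested were higher at day 7 and 11.9% at day 14. Atf3 ranged from 3.82 to 12.2 FPKM in sham ganglia and from 6.13 to 15.1 FPKM in the 10 TCI samples fitted, so the groups overlapped on every day. Gap43, the most abundant of the 10, stayed between 134 and 187 FPKM in the 14 samples.

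Promoter sequence was available for 6 of the 10 genes in RefSeq (build GRCr8), as the 250 bases before the start of each gene. For this, 3 motifs were searched on both strands. They were the AP-1 site TGACTCA or TGAGTCA, bound by dimers that contain JUN or ATF3, the cyclic AMP response element TGACGTCA, and the TATA box TATAAA or its reverse complement TTTATA. The promoters of 3 genes are shown with matches in capitals, because Sprr1a is the 1 gene of the 6 with an AP-1 match, Gadd45a is the 1 gene of the 6 that passed an adjusted p of 0.05, and Reg3b varied most between libraries. Each reads 5' to 3' on the strand of the gene, up to the base before its start.
Sprr1a, chr2:180752626-180752875, minus strand: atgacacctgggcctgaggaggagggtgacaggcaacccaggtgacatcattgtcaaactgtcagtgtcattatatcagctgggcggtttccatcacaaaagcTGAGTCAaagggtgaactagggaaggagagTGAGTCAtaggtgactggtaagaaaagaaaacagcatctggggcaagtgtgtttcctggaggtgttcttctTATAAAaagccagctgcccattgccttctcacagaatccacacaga
Gadd45a, chr4:97486800-97487049, minus strand: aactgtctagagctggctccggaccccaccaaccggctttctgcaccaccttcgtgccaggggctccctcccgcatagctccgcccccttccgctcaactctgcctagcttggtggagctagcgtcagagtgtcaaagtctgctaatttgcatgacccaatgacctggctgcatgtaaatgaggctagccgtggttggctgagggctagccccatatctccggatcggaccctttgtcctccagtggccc
Reg3b, chr4:112419526-112419775, plus strand: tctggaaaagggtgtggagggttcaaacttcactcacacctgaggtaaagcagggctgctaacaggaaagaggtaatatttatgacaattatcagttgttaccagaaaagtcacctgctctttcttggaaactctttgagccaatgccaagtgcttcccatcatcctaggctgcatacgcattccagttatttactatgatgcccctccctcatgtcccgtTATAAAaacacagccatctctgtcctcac
The Sprr1a promoter held 2 AP-1 matches, beginning 147 and 117 bases before the start, and a TATA match beginning 46 bases before it. Reg3b held a TATA match beginning 29 bases before its start, and Gadd45a none of the 3 motifs. AP-1 letters occurred in 4.05% of the 33469 promoters of the table, the cyclic AMP response element in 1.59% and the TATA box in 12.9%. None of the 6 promoters held the cyclic AMP response element, and those of Sox11, Ecel1 and Flrt3 held none of the 3 motifs.

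**Figure D1:**
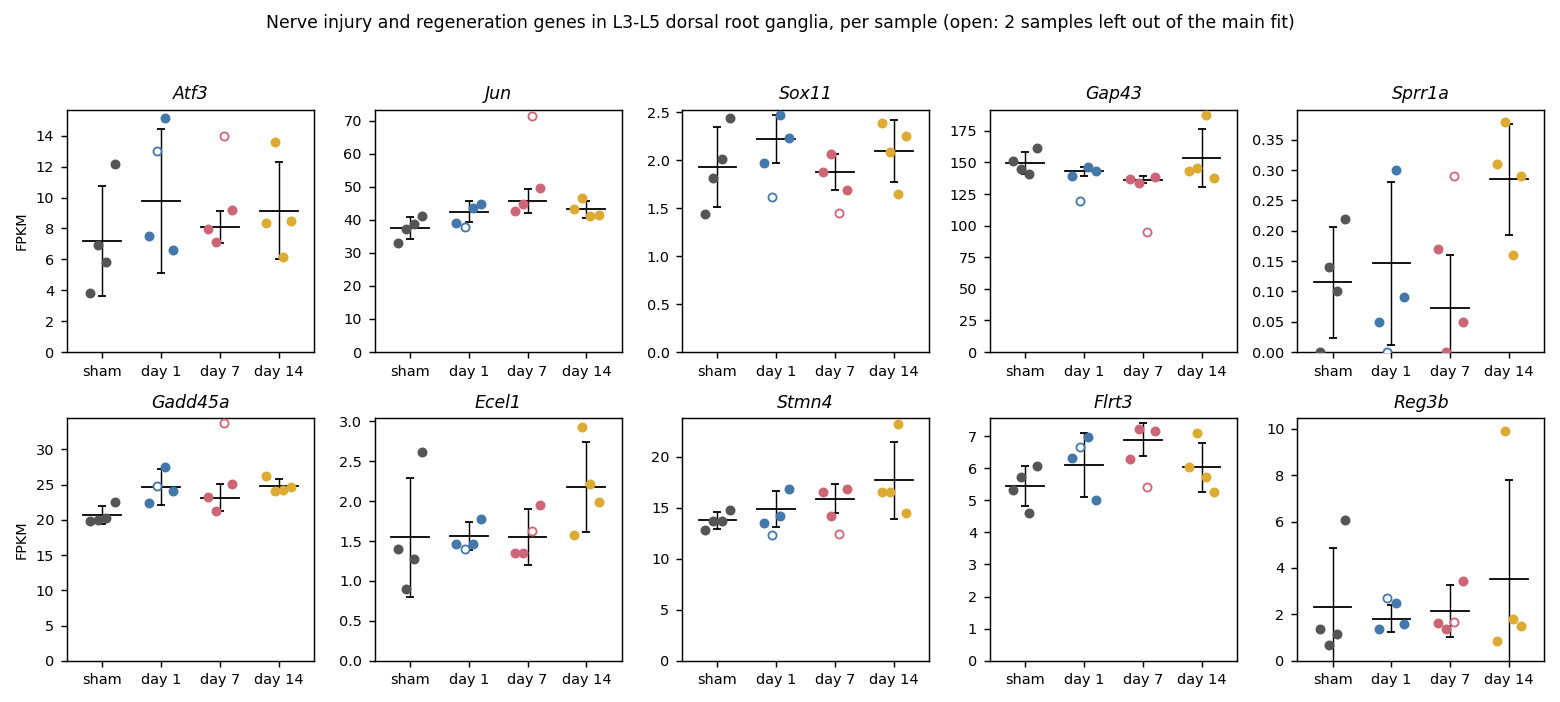
Level of each of the 10 genes (y axes, FPKM from 0) in each of the 16 samples by group (x axes), with the mean (line) and SD (bar, cut at 0) of the filled points, which are the 14 samples fitted. The TCI and sham samples of Atf3 overlap on every day, whereas Jun at day 7 (42.7 to 49.6 FPKM) and Gadd45a at day 14 (24.1 to 26.3 FPKM) lie above all 4 sham samples.

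The 3 transcription factors were taken first. Levels are in FPKM, sequenced fragments divided by transcript length and by the total mapped in that library, the unit of the deposited files. Changes are log2 fold changes of FPKM + 1 from limma, a linear model fitted to the 14023 genes that reached 1 FPKM in 3 or more of the 14 samples, with p adjusted by Benjamini-Hochberg over all of them. Atf3 (gene ID 25389), the stress-induced factor that marks injured neurons, was 3.82, 6.96, 5.85 and 12.2 FPKM in sham samples 1 to 4. It was 7.53, 15.1 and 6.62 FPKM at day 1, 7.99, 7.10 and 9.19 FPKM at day 7 and 8.37, 13.6, 6.13 and 8.50 FPKM at day 14. Sham sample 4 was higher than 8 of the 10 TCI samples fitted, and sham sample 1 was the lowest of all. Mean Atf3 was 7.20 ± 3.56 FPKM in sham (SD, n = 4) and 9.76 ± 4.67 at day 1 (n = 3), 8.09 ± 1.05 at day 7 (n = 3) and 9.15 ± 3.15 at day 14 (n = 4). The log2 fold change was 0.41 at day 1 (SE 0.33, 95% confidence interval -0.31 to 1.12, adjusted p = 0.976 by limma). At day 7 it was 0.24 (interval -0.47 to 0.95, limma adjusted p = 0.672) and at day 14 it was 0.36 (interval -0.30 to 1.01, limma adjusted p = 0.469). A fold of 2.02 at day 14 and of 2.17 at day 1 was therefore still inside the interval of Atf3.

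Jun (gene ID 24516), which encodes c-Jun, the partner of ATF3 in AP-1 dimers, was 33.0, 37.2, 38.8 and 41.1 FPKM in sham. At day 7 it was 42.7, 44.8 and 49.6 FPKM, all above the highest sham sample, as was also so for 23.8% of the genes tested. Jun rose by 0.28 at day 7 (SE 0.08, interval 0.11 to 0.45, limma adjusted p = 0.0245), from a mean of 37.5 ± 3.39 FPKM (n = 4) to 45.7 ± 3.55 FPKM (n = 3). The genes called higher at this threshold on day 7 made up 14.5% of those tested, and those called lower 3.45%. Leaving out sham sample 1, sham sample 2, day 7 sample 2 or day 7 sample 4 gave adjusted p between 0.0551 and 0.107 with limma, above the threshold. At day 1 Jun was 38.9, 43.7 and 44.8 FPKM (log2 fold change 0.18, limma adjusted p = 0.939). At day 14 it was 43.4, 46.6, 41.1 and 41.6 FPKM, again above every sham sample, with a log2 fold change of 0.20 (interval 0.05 to 0.36, limma adjusted p = 0.0789). The lowest day 14 sample was at 41.13 FPKM and the highest sham sample at 41.05 FPKM, and all 4 TCI samples lay above all 4 sham samples at day 14 for 13.8% of genes tested.

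Sox11 (gene ID 84046), an SRY-related factor of developing and regenerating neurons, was at a low level throughout. It was 1.44, 1.81, 2.01 and 2.44 FPKM in sham, 1.97, 2.47 and 2.23 at day 1, 1.88, 2.06 and 1.69 at day 7 and 2.39, 2.08, 1.65 and 2.25 at day 14. The sham range held 13 of the 14 samples, the exception being the 2.47 FPKM of day 1 sample 3. The log2 fold changes were 0.15, -0.01 and 0.09 at days 1, 7 and 14, with limma adjusted p between 0.646 and 0.976 and an upper interval bound of 0.40 at most.

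Genes of the growing axon came next. Gap43 (gene ID 29423), a growth cone membrane protein, was 152, 145, 140.5 and 161 FPKM in sham and 139, 147 and 143 FPKM at day 1. At day 7 it was 137, 134 and 139 FPKM, below all 4 sham samples, and 10.1% of genes tested showed the same arrangement. At day 14 it was 143, 146, 187 and 137 FPKM. The log2 fold change was -0.06, -0.13 and 0.03 at days 1, 7 and 14 (limma adjusted p = 0.994, 0.336 and 0.859), and no interval reached above 0.20, which is a fold of 1.15. The 187 FPKM came from day 14 sample 3, which also had the highest mean of the pan-neuronal genes (7.66 against 7.41 to 7.63 in the other 13 samples fitted, as log2(FPKM + 1)) and the lowest of the satellite glia genes (5.21 against 5.53 to 5.75). The part of tissue makeup in this value was not tested, and in whole ganglia fewer cells of a type and less RNA per cell cannot be told apart.

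Stmn4 (gene ID 79423), a microtubule-binding stathmin, was 12.8, 13.7, 13.7 and 14.8 FPKM in sham and 13.6, 14.2 and 16.8 FPKM at day 1. It was 16.6, 14.2 and 16.9 FPKM at day 7 and 16.5, 16.5, 23.2 and 14.5 FPKM at day 14. Day 14 sample 3 was again the highest, and 1 sample on each of days 7 and 14 lay inside the sham range. The log2 fold change was 0.19 at day 7 (limma adjusted p = 0.328) and 0.32 at day 14 (interval 0.07 to 0.57, limma adjusted p = 0.0836). Without day 14 sample 4 the latter was 0.40 with a limma adjusted p of 0.0334, past the threshold.

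Sprr1a (gene ID 499660), a small proline-rich protein that promotes axon outgrowth and is almost absent from intact ganglia, was too low for the filter of the test. It was listed at 0 in sham sample 1 and at 0.14, 0.10 and 0.22 FPKM in the other sham samples. It was 0.05, 0.30 and 0.09 FPKM at day 1, 0.17, 0 and 0.05 FPKM at day 7 and 0.31, 0.38, 0.16 and 0.29 FPKM at day 14. At day 14, 3 of the 4 samples lay above every sham sample. Mean FPKM was 0.285 ± 0.092 at day 14 (n = 4) and 0.115 ± 0.092 in sham (n = 4), a difference that did not pass 0.05 (two-sided exact permutation p = 0.0571), where the smallest p that 4 against 4 allows is 0.0286. For days 1 and 7 the exact permutation p was 0.743 and 0.629. All values were below 0.4 FPKM and the deposited unit gives no read counts, so depth behind these values is unknown. The near copy Sprr1b may share reads with Sprr1a.

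Gadd45a (gene ID 25112), a DNA damage and stress gene that is raised for long periods in axotomized neurons, was 19.9, 20.01, 20.2 and 22.5 FPKM in sham. It was 22.4, 27.4 and 24.1 FPKM at day 1, 23.2, 21.3 and 25.03 FPKM at day 7, and 26.3, 24.1, 24.3 and 24.7 FPKM at day 14. All 4 day 14 samples lay above every sham sample, as they did for 13.8% of genes tested, and the sham samples 1 to 3 lay below every TCI sample. Gadd45a rose by 0.26 at day 14 (SE 0.07, interval 0.11 to 0.40, limma adjusted p = 0.0217), from 20.6 ± 1.25 to 24.8 ± 0.98 FPKM (n = 4 each). On day 14, 11.9% of genes tested were called higher and 3.21% lower at this threshold. With all 16 samples in the fit the adjusted p at day 14 was 0.157 by limma, and it lay between 0.051 and 0.065 when sham sample 1, 2 or 3 or day 14 sample 1 was left out. The log2 fold change was 0.24 at day 1 (limma adjusted p = 0.793) and 0.16 at day 7 (limma adjusted p = 0.157).

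Ecel1 (gene ID 60417), an endopeptidase-like protein made by injured neurons, was 1.4, 0.90, 1.27 and 2.62 FPKM in sham. It was 1.46, 1.46 and 1.77 FPKM at day 1, 1.35, 1.35 and 1.95 FPKM at day 7 and 1.57, 2.93, 2.22 and 1.99 FPKM at day 14. At day 14, 3 of the 4 samples lay within the sham range because sham sample 4 was at 2.62 FPKM. The log2 fold change at day 14 was 0.34 (interval -0.04 to 0.73, limma adjusted p = 0.218), and 0.53 with adjusted p = 0.0357 by limma without sham sample 4, so 1 library decided this call. At days 1 and 7 it was 0.05 and 0.04.

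Flrt3 (gene ID 366205), a cell surface adhesion and guidance protein, was 5.33, 5.72, 4.61 and 6.07 FPKM in sham and 6.32, 6.96 and 5.02 FPKM at day 1. At day 7 it was 6.29, 7.21 and 7.17 FPKM, above all 4 sham samples, an arrangement shared by 23.8% of genes tested. At day 14 it was 6.05, 7.08, 5.71 and 5.27 FPKM. The log2 fold change was 0.14 at day 1, 0.30 at day 7 (interval 0.06 to 0.54, limma adjusted p = 0.0848) and 0.13 at day 14. With the left-out day 7 sample 3 (5.42 FPKM) the day 7 samples overlapped with sham.

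Reg3b (gene ID 24618), a secreted C-type lectin induced in neurons after nerve injury and inflammation, was 1.38, 0.70, 1.14 and 6.08 FPKM in sham. It was 1.38, 2.47 and 1.57 FPKM at day 1, 1.61, 1.36 and 3.43 FPKM at day 7 and 0.86, 9.91, 1.78 and 1.48 FPKM at day 14. One library in each of the sham, day 7 and day 14 groups stood above the others, and the groups overlapped on every day. The intervals were the widest of the 9 genes tested, from -1.24 to 1.21 at day 1 and from -0.84 to 1.43 at day 14 around fold changes of -0.01 and 0.30. Reads of the near copies Reg3a and Reg3g may be shared with Reg3b, so its level is uncertain.

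**Figure D2:**
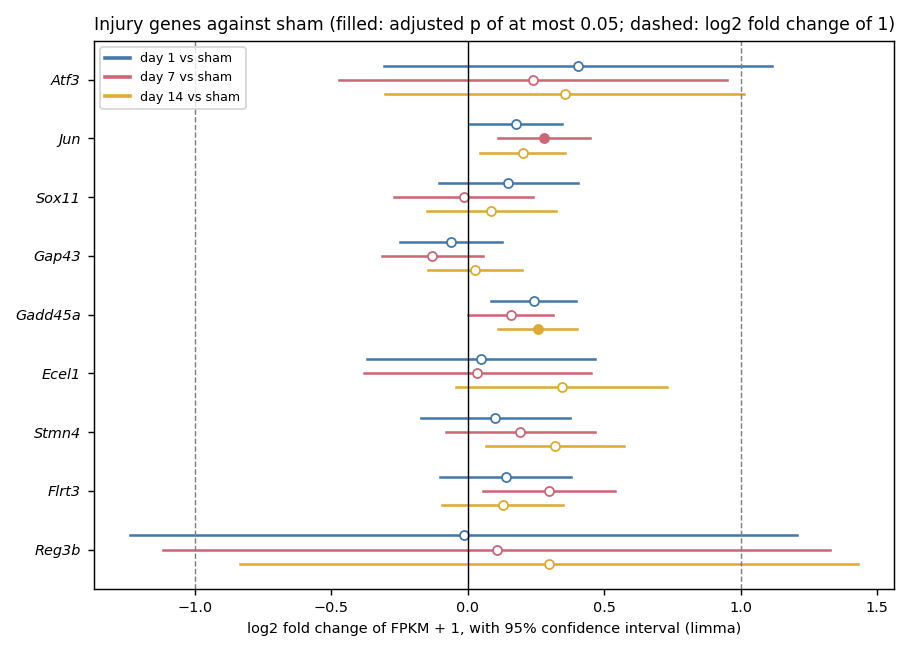
Log2 fold change of FPKM + 1 against sham (x axis) with its 95% confidence interval from limma for the 9 genes tested (y axis) at days 1, 7 and 14, over 14 samples. Filled points pass an adjusted p of 0.05, and the dashed lines mark a log2 fold change of 1. Jun at day 7 and Gadd45a at day 14 are filled, and the intervals of Atf3 and Reg3b are the ones that cross the dashed line at 1.

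Over the 9 genes tested, the count past the cut-offs of the study was 0 at each of the 3 days. Over all genes tested these cut-offs called 0% at day 1, 1.83% at day 7 and 0.642% at day 14. The study applied the same thresholds with another test and reported more genes past them at each day, so only the thresholds are shared. At an adjusted p of 0.05 by limma, the count of the 9 was 0 at day 1, 1 at day 7 and 1 at day 14, both higher, beside 14.5% of all genes higher at day 7 and 11.9% at day 14. An unadjusted limma p under 0.05 was reached by 2, 3 and 3 of the 9, and by 5.23%, 31.2% and 29.9% of all genes tested. At day 1 no gene of the 14023 passed in either direction (0%), and all TCI samples lay above all sham samples for 6.17% of genes and for none of the 10. The median log2 fold change of the 9 was 0.14, 0.16 and 0.26 at days 1, 7 and 14, against 0.001, 0.04 and 0.03 for all genes tested. The fitted value lay above 0 for 7 genes at day 1, 7 at day 7 and 9 at day 14. The upper bound of the 95% interval stayed under a log2 fold change of 1 for 7, 8 and 7 of the 9 genes, and the exceptions were Reg3b on all 3 days and Atf3 on days 1 and 14. With a pseudocount of 0.1 the counts were 7, 7 and 6, as Atf3 at day 7 and Ecel1 at day 14 also reached 1. Without day 14 sample 2 they were 8, 9 and 9. The 3 comparisons with sham share the sham samples.

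Between days the 9 genes gave 0 calls in 27 tests, with limma adjusted p of 0.344 at the least, for Stmn4 at day 14 against day 1. Of all genes tested, 10.4% were called in either direction for day 7 against day 1, 0.0998% for day 14 against day 7 and 6.96% for day 14 against day 1. These counts moved with single libraries. The 1464 genes of day 7 against day 1 became 838 to 941 without any 1 of the day 1 samples or of day 7 samples 1 and 2. The 14 of day 14 against day 7 became 189 without day 14 sample 2 and 2 to 28 without any other sample, and the 976 of day 14 against day 1 became 296 to 350 without any 1 of the day 1 samples.

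Some libraries were high or low for many of the 10 genes. Sham sample 4 had the highest value of the 4 sham samples for all 10 genes, while it held the highest sham value for 30.3% of all genes tested. Sham sample 1 had the lowest sham value for 6 of the 10, against 26.6% of all genes tested. At day 14, sample 2 was the highest of its group for 6 genes, namely Atf3, Jun, Sprr1a, Ecel1, Flrt3 and Reg3b, against 25.5% of all genes tested. At day 1, with the left-out sample 2 counted, sample 3 was the highest for Atf3, Sox11, Gap43, Sprr1a, Gadd45a and Flrt3, against 26.1%.

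The neuropeptide genes Gal and Npy, which axotomized neurons begin to express, showed the same libraries. Gal, which encodes galanin, was 10.6, 10.7, 9.86 and 19.4 FPKM in sham and 13.2, 17.4, 12.7 and 8.80 FPKM at day 14. Npy, which encodes neuropeptide Y, was 1.74, 10.6, 9.77 and 30.3 FPKM in sham and 7.81, 21.3, 0 and 6.83 FPKM at day 14. Sham sample 4 and day 14 sample 2 were the highest of their groups for both.

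Sham sample 4 also carried skeletal muscle RNA, with a mean of the 20 muscle genes of 4.09 as log2(FPKM + 1) against 0.87 to 0.91 in the other sham samples, and its actin gene Acta1 was at 177 FPKM. Its pan-neuronal mean of 7.60 lay within the range of the other sham samples. Without sham sample 4, the log2 fold change of Atf3 was 0.67, 0.50 and 0.61 at days 1, 7 and 14 (limma adjusted p = 1, 0.299 and 0.178), that of Jun at day 7 was 0.32 (limma adjusted p = 0.0169) and that of Gadd45a at day 14 was 0.30 (limma adjusted p = 0.0181). The part of muscle or of the dissection in the levels of sham sample 4 was not tested.

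**Figure D3:**
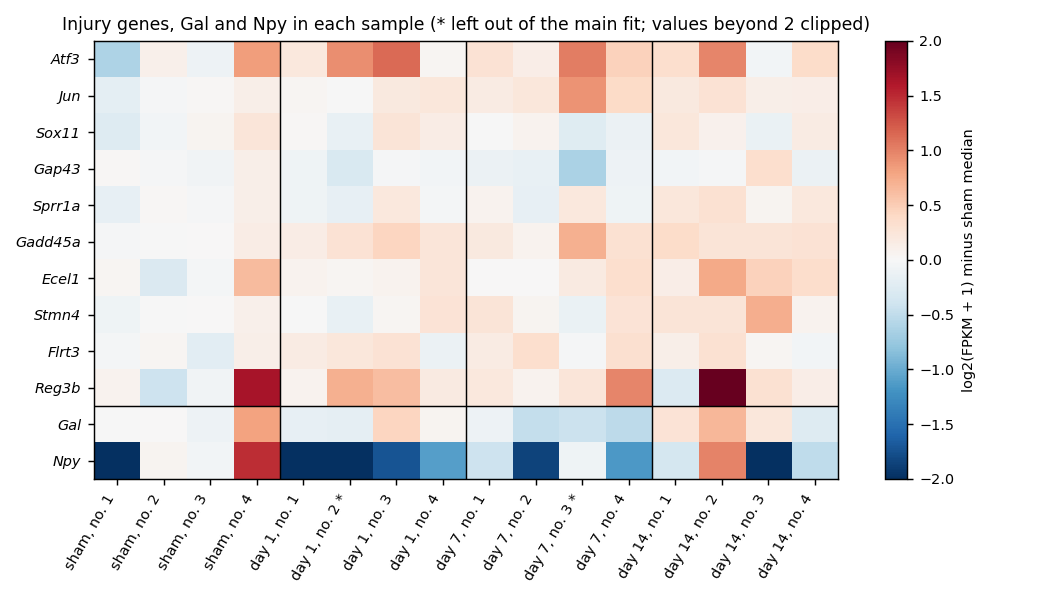
Log2(FPKM + 1) of the 10 genes, Gal and Npy (rows) in the 16 samples (columns), minus the median of the 4 sham samples of that gene, with colors clipped at 2 in either direction. The columns of sham sample 4 and day 14 sample 2 are red in most rows, with Reg3b at 6.08 and 9.91 FPKM, and day 7 sample 3 has blue Gap43 (95.2 FPKM) with red Jun (71.4 FPKM).

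The samples left out by the study changed some of these levels. Day 7 sample 3 had 14.0 FPKM of Atf3, 71.4 of Jun and 33.7 of Gadd45a, each the highest of its group, and 95.2 FPKM of Gap43, the lowest of the 16 samples. It also had a muscle mean of 9.35 against 1.02 to 1.12 in the other day 7 samples, and a pan-neuronal mean of 6.89 against 7.41 to 7.54. Its Sox11 was 1.45, Sprr1a 0.29, Ecel1 1.63, Stmn4 12.4 and Reg3b 1.67 FPKM. Day 1 sample 2 had 13.0 FPKM of Atf3, 37.7 of Jun, 1.62 of Sox11, 120 of Gap43, 24.8 of Gadd45a, 1.4 of Ecel1, 12.3 of Stmn4, 6.66 of Flrt3 and 2.71 of Reg3b, and Sprr1a was listed at 0. With all 16 samples Jun rose by 0.44 at day 7 (limma adjusted p = 0.0244) and was the only call of the 9 genes against sham. The call of Gadd45a at day 14 was lost in that fit (limma adjusted p = 0.157).

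A wider list of 66 other genes raised by axotomy was then read, 56 of which had enough signal for the test. At day 7, 10 of the 56 rose and 7 fell, or 17.9% and 12.5%, with a median log2 fold change of 0.03, beside 14.5% and 3.45% of all genes tested. At day 14, 6 rose and 3 fell, or 10.7% and 5.36%, with a median of 0.04, beside 11.9% and 3.21% of all genes, and at day 1 none was called (6 at an unadjusted limma p under 0.05). The median of all genes tested was 0.04 at day 7 and 0.03 at day 14. The split moved with the scaling, as did the calls over all 14023 genes tested. With samples scaled to equal pan-neuronal levels the list gave 17 higher and 3 lower at day 7 and 11 and 1 at day 14. All genes tested then gave 29.8% higher and 49 genes lower at day 7, and 18.3% and 75 genes at day 14. After quantile normalization the list gave 9 and 10 at day 7 and 4 and 6 at day 14. All genes tested then gave 1396 higher and 2239 lower at day 7, and 1185 and 1562 at day 14.

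The largest rises at day 7 were in Cebpd, an inflammatory transcription factor (1.18, limma adjusted p = 0.00123), Rbm3, a cold-inducible RNA-binding protein (0.84, adjusted p = 0.00605), the cell cycle inhibitor Cdkn1a (0.83, adjusted p = 0.015) and Socs3, a feedback inhibitor of cytokine signaling (0.76, adjusted p = 0.00426). Cebpd was 8.22 to 12.9 FPKM in sham and 20.6, 25.7 and 30.0 FPKM in the 3 day 7 samples. At day 14 they were Rbm3 (1.47, limma adjusted p = 0.000287), the protease gene Plau (0.70, adjusted p = 0.0315), Csf1, a macrophage growth factor (0.62, adjusted p = 0.0152) and Socs3 (0.49, adjusted p = 0.0325). Rbm3 was 19.5 to 24.7 FPKM in sham and 57.4, 87.3, 59.7 and 47.8 FPKM at day 14, and was the 1 gene of this list past the cut-offs of the study. Csf1, which injured sensory neurons are known to make, was 4.05, 4.58, 5.46 and 5.50 FPKM in sham and 8.90, 8.93 and 8.05 FPKM at day 7, a rise of 0.71 (limma adjusted p = 0.00844), and its day 14 samples were 7.27, 11.52, 5.78 and 8.42 FPKM. Cebpd, Socs3, Csf1 and Plau are also made by cells other than neurons, and which cells made them was not tested.

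Members of the same list that fell included Bdnf, a neurotrophin of sensory neurons, by 0.55 at day 7 (limma adjusted p = 0.00309) and by 0.46 at day 14 (adjusted p = 0.00774). Bdnf was 6.84, 5.47, 7.95 and 6.68 FPKM in sham and 4.69, 4.42, 4.36 and 4.91 FPKM at day 14, with no overlap, as for the 5.38% of genes tested with every day 14 sample below every sham sample. At day 7 the neuronal pentraxins Nptx2 and Nptx1 fell by 0.46 and 0.34 and the tubulin gene Tubb2a by 0.36. At day 14 Nptx1 fell by 0.31 and the integrin gene Itga7 by 0.16 (limma adjusted p between 0.00279 and 0.0367 for these 5 values). Gal, Npy and Stat3 passed on no day. Gal had log2 fold changes of -0.07, -0.55 and 0.05 at days 1, 7 and 14 (limma adjusted p of at least 0.139), and Npy had -1.76, -1.0 and -0.70 (at least 0.51). Stat3, a factor activated mainly by phosphorylation, had -0.07, 0.02 and 0.09 (at least 0.34).

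Of 37 genes that axotomy lowers, all tested, none rose and 4 fell at day 7, and none rose and 5 fell at day 14, with medians of -0.11 and -0.10, beside 3.45% and 3.21% of all genes called lower. With samples scaled to equal pan-neuronal levels, 6 were higher and 3 lower at day 7 (median 0.01). At day 14, 2 were higher and 3 lower (median -0.03). Under that scaling 29.8% of all genes tested were called higher at day 7 and 18.3% at day 14. Those called lower were 49 and 75 of 14023 genes. The 6 were the receptor genes P2rx3 (0.36), Htr3a (0.26), Htr3b (0.28), Grik1 (0.35) and Chrna6 (0.52) and the potassium channel gene Kcna4 (0.34), and the 2 were P2rx3 (0.24) and Grik1 (0.24). None was called at day 1 (1 at an unadjusted limma p under 0.05). The 3 lower genes on both days under that scaling were the neurofilament genes. These 3, which encode the intermediate filaments of large axons, also all fell on both days in the unscaled values. At day 7 Nefl fell by 0.29, Nefm by 0.30 and Nefh by 0.30, with limma adjusted p of 0.00832, 0.00822 and 0.00423. Nefl was 4699, 4608, 4481 and 4419 FPKM in sham and 3383, 3628, 3826 and 3720 FPKM at day 14, with no overlap, the arrangement of 5.38% of genes tested. It fell by 0.32 at day 14 (limma adjusted p = 0.00444), and Nefm by 0.31 (adjusted p = 0.00614).

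With pan-neuronal scaling the falls of Nefl, Nefm and Nefh were 0.17, 0.18 and 0.18 at day 7 and 0.25, 0.23 and 0.20 at day 14, all with limma adjusted p under 0.05. After quantile normalization Nefl at day 7 lost its call (-0.19, limma adjusted p = 0.0639), and with all 16 samples Nefl, Nefm and Nefh lost it at day 14 (limma adjusted p = 0.0783, 0.0965 and 0.128). The potassium channel gene Kcna2 fell by 0.32 at day 7 and by 0.28 at day 14, and the receptor gene Ntrk2 by 0.37 at day 14 (limma adjusted p = 0.0283, 0.047 and 0.0132). Under the pan-neuronal scaling these 3 values lost their calls.

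**Figure D4:**
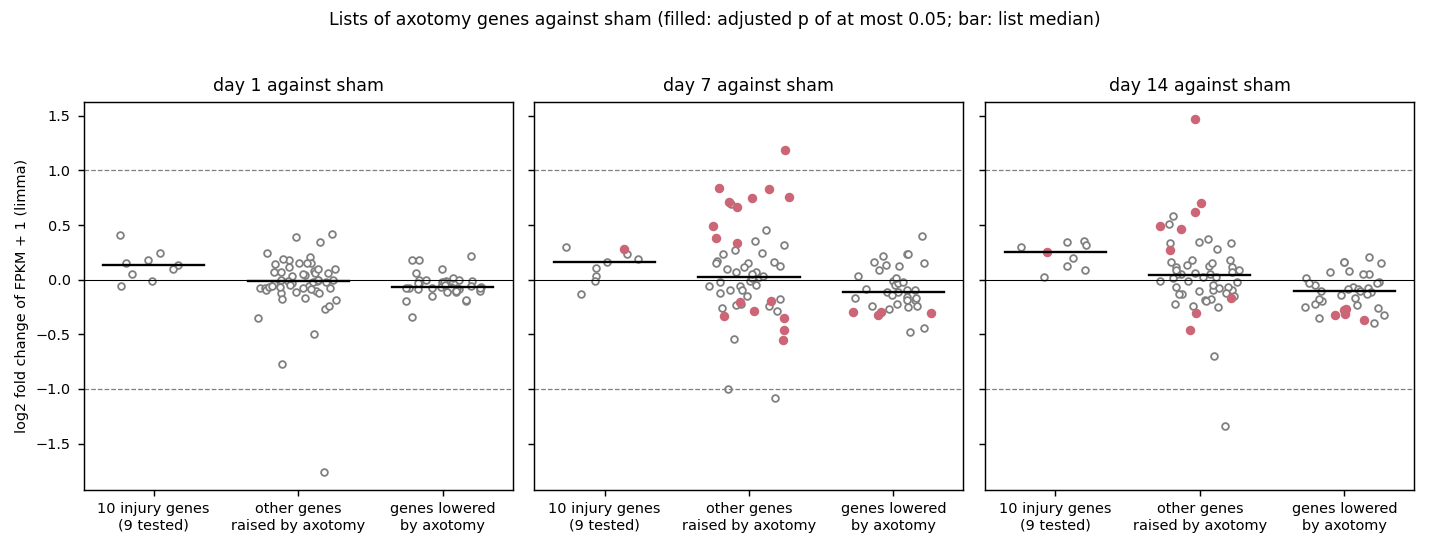
Log2 fold change of FPKM + 1 against sham (y axis) at days 1, 7 and 14 (panels) for the genes described here (9 tested), 56 other genes raised by axotomy and 37 genes lowered by it. Filled points pass an adjusted p of 0.05 by limma, horizontal bars are medians and dashed lines mark log2 fold changes of 1 and -1. Among the 56 the filled points lie on both sides of 0, with 10 above and 7 below at day 7. Among the 37 they lie below 0. With pan-neuronal scaling, not drawn here, 6 of the 37 were higher and 3 lower at day 7. Of all genes tested, 29.8% were then called higher and 49 genes lower.

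Markers of other cells moved on the same days. All 15 macrophage genes were higher at day 7 (median log2 fold change 2.28) and 13 of 15 at day 14 (median 1.64) at an adjusted p of 0.05 by limma. Their summed level was 73.1 to 137 FPKM in sham, 974 to 1302 FPKM at day 7 and 545 to 1880 FPKM at day 14. The 1880 FPKM came from day 14 sample 2, highest of its group for 6 of the 10 injury genes, and 1185 FPKM of it was Lyz2. By list mean, day 7 sample 2 was higher, at 4.84 against 4.82 as log2(FPKM + 1). With the left-out sample 3 counted, that library was the highest of its group for 2 of the 10 injury genes and the lowest for 4. The part of macrophage RNA in the levels of the injury genes was not tested. The 3 most abundant macrophage genes were Lyz2, C1qa and C1qc. All 11 T cell genes tested were higher on both days.

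The 16 pan-neuronal genes, led by Uchl1, Tubb3 and Prph, had a list mean of 7.59 ± 0.03 as log2(FPKM + 1) in sham (n = 4), 7.47 ± 0.07 at day 7 (n = 3) and 7.52 ± 0.10 at day 14 (n = 4). Snap25 and Rbfox3 fell at day 7 and Snap25 and Elavl4 at day 14, and none rose. FPKM is a share of all fragments, so the value of a neuronal gene also depends on the RNA of other cells in the ganglion. Scaled to the pan-neuronal genes, 4 of the 9 injury genes were higher at day 7 (Jun, Gadd45a, Stmn4 and Flrt3) and 3 at day 14 (Jun, Gadd45a and Stmn4), beside 29.8% and 18.3% of all genes tested called higher under the same scaling. Atf3, Sox11 and Gap43 were not among them, and no log2 fold change exceeded 0.43. This scaling moved the median log2 fold change of all genes from 0.04 to 0.16 at day 7 and from 0.03 to 0.10 at day 14.

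Satellite glia genes, led by Apoe and Ptn, had 1 member higher and 1 lower of 9 tested at day 7 and 2 lower at day 14. Of 12 repair Schwann cell genes tested, the most abundant being Ngfr, Mcam and Ncam1, 2 rose and 1 fell at day 7, and 1 rose and 2 fell at day 14. Beside these lists, 14.5% of all genes tested rose and 3.45% fell at day 7, and 11.9% rose and 3.21% fell at day 14. None of the 10 myelin genes passed on any day. The immediate early genes, which cells switch on within minutes of a stimulus, had 7 of 20 higher at day 7, including Zfp36 (1.09, limma adjusted p = 0.00238), Junb (0.79, adjusted p = 0.0115) and Jund (0.41, adjusted p = 0.02), and 1 lower, Arc. At day 14, 2 were higher and 1 lower. Their part, and that of the macrophage genes, in the rise of Jun was not tested. Of the 10 endothelial genes, led by Cldn5, Eng and Emcn, 2 rose at day 7, and of the 10 fibroblast genes, led by Dcn, Col1a1 and Col3a1, 6 rose at day 7 and 2 at day 14. No muscle gene, led by Acta1, Ckm and Tnnt3, passed among the 14 samples.

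**Figure D5:**
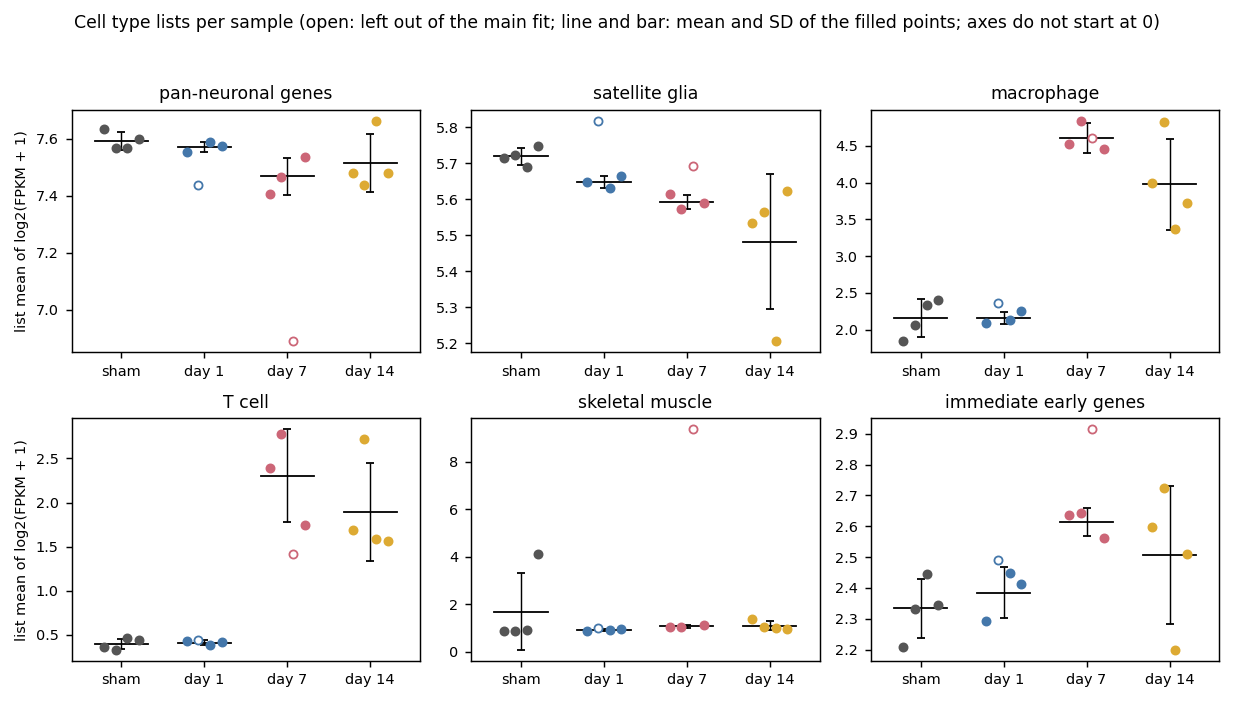
Mean log2(FPKM + 1) of 6 gene lists (y axes, which do not start at 0) in each sample by group (x axes), with the mean and SD of the 14 filled samples. The macrophage list rises from 2.16 in sham to 4.61 at day 7, whereas the pan-neuronal list moves from 7.59 to 7.47, and the open point of day 7 stands apart in the muscle panel at 9.35.

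Among themselves, the 10 genes varied together in part. Over the 14 samples, which share the 4 groups, the highest Pearson correlations of log2(FPKM + 1) were 0.83 between Ecel1 and Reg3b, 0.71 between Atf3 and Sprr1a and 0.69 between Jun and Gadd45a. Ecel1 and Reg3b were both highest of their groups in sham sample 4 and day 14 sample 2. The lowest correlations were -0.22, for Gap43 with Jun and with Sox11. With all 16 samples that of Gap43 with Jun was -0.62. The tested genes most like Atf3 over the 14 samples were Klhdc4 (r = 0.82), Taf1c (0.77) and Alyref (0.77), and those most like Jun were Bub3 (0.92), Pold1 (0.88) and Dlgap4 (0.87). Gap43 was most like LOC108351956 (0.96), Vamp2 (0.91) and Slc45a1 (0.90), and Gadd45a was most like Plekhh3 (0.85), Gba2 (0.82) and Ngef (0.82). These are the highest values of all tested genes for each gene, given as a description.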

How the data were processed

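L3-L5 DRGs from 16 rats were profiled by RNA-seq. According to the methods of the study, libraries were sequenced on the BGISEQ platform, reads were cleaned, mapped with HISAT and Bowtie2, and quantified with RSEM. The labels name Illumina library protocols, and the submitters' processing notes name CASAVA 1.4 and Bowtie2. The genome build is not given in the sources used here. The deposited files hold FPKM per gene, normalized by the authors to transcript length and to fragments mapped. They hold no counts, so no count test was made. The depth of a library is unknown from the files. From the steps of low FPKM values of 47 genes (4 to 20 genes per sample), depth relative to the median sample was estimated at 0.956 to 1.029, which gives no absolute depth and no counting interval.

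Groups and replicate numbers came from the sample labels. FPKM was transformed to log2(FPKM + 1), genes reaching 1 FPKM in 3 or more fitted samples were kept (14023 of 21021), and limma 3.58.1 in R 4.3.3 (lmFit, contrasts.fit, eBayes with trend) was fitted to all 4 groups in one model with 6 contrasts and Benjamini-Hochberg adjustment over all genes tested. A fold change on this scale understates the change of low genes. Sprr1a, below the filter, was compared by a two-sided exact permutation test of mean FPKM in Python 3.11.15 with scipy 1.17.1. The steps were tested on simulated data. At most 2.78% of values above 0 were identical between any 2 samples, so every sample was counted once. By the methods of the study each sample came from a separate rat.

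The 10 genes, the gene lists and the tests were chosen with earlier results of these data known. The genes named were the 10, the 4 largest changes in each direction at an adjusted p of 0.05 from the lists of genes raised or lowered by axotomy, Gal, Npy, Csf1 and Stat3 whatever their values, the 3 genes most correlated with each of Atf3, Jun, Gap43 and Gadd45a, and up to 3 abundant members of each cell type list. The immediate early, pan-neuronal, receptor and Kcna4 genes named with their changes, and Acta1 in sham sample 4, were chosen after their values were seen. Alternatives were all 16 samples, no trend in limma, quantile normalization, pan-neuronal scaling, no filter, a filter at a mean FPKM of 5, a replicate block, a pseudocount of 0.1, only the 2 groups compared, and each sample left out in turn. All 16 samples with pan-neuronal scaling was added after the data were seen. Promoter sequences came from RefSeq (GRCr8), which held 6 of the 10 genes in the table used. Atf3, Jun, Gap43 and Stmn4 were not matched.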

Additional observations from a re-analysis of the deposited data

Results flagged for a closer look

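In 7 of 40 sets of 4 values (10 genes in 4 groups, all 16 samples), the highest or lowest sample stood farther from the rest than Dixon's 95% limit. Chance flags about 1 set in 20. Reg3b gave 3 of them, at 6.08 FPKM in sham sample 4, 3.43 FPKM in day 7 sample 4 and 9.91 FPKM in day 14 sample 2. Gap43 gave 2, at 95.2 FPKM in day 7 sample 3, the lowest of its group, and 187 FPKM in day 14 sample 3, the highest of its group. Gadd45a was highest of its group at 22.5 FPKM in sham sample 4, and Ecel1 at 1.77 FPKM in day 1 sample 4. Sham sample 4 and day 7 sample 3 also had the highest muscle gene means of all samples, and day 14 sample 3 the highest pan-neuronal mean.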

How the results depend on the processing

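No count of the 10 genes past the cut-offs of the study moved from 0 under any alternative, and of 1278 alternative values of single genes 0 reversed a call, 13 gained one, 10 lost one and 72 uncalled values changed sign. At an adjusted p of 0.05, the count of the 9 genes at day 7 (1) was 4 with pan-neuronal scaling of 14 or 16 samples and 2 in a fit of only the 2 groups compared, and the count at day 14 (1) was 0 with all 16 samples and 3 with pan-neuronal scaling. Leaving out 1 sample gave 0 to 1 at day 7 and 0 to 2 at day 14. For day 7 against day 1 quantile normalization gave 1 in place of 0, Sox11 at -0.37 (limma adjusted p = 0.0399). Of the genes raised by axotomy, the 17 at day 7 became 11 to 20 without 1 sample (11 without day 7 sample 2), and the 9 at day 14 became 3 with all 16 samples or only 2 groups, 2 with all 16 and pan-neuronal scaling, and 3 to 14 without 1 sample (3 and 5 without sham sample 1 or 2, 14 without day 14 sample 3). Of the genes lowered by axotomy, the 4 at day 7, all lower, became 7 with all 16 samples (all lower), 7 with all 16 and pan-neuronal scaling, 9 with quantile normalization (all lower), 9 with pan-neuronal scaling (6 higher, 3 lower), 9 with only 2 groups (2 higher, 7 lower), 1 without a filter and 3 to 8 without 1 sample (8 without day 14 sample 3). The 5 at day 14 became 1 with all 16 samples or no filter, 9 with quantile normalization, 3 with only 2 groups, 2 with all 16 and pan-neuronal scaling, and 4 to 7 without 1 sample. The cause of these moves was not tested.

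Same-numbered samples of different groups had a median correlation of their deviations of 0.002 over 18 pairs, with 4 above 0.1. Samples with different numbers had a median of -0.005 over 55 pairs, with 8 above 0.1. These values do not settle whether the numbers pair the samples. With the replicate block the genes lowered by axotomy at day 7 came to 8 (1 higher, 7 lower) in place of 4. Over all genes the calls for day 14 against day 7 fell from 14 to 4 and those for day 14 against day 1 from 976 to 622, and the block moved no count of the 10 genes or of the genes raised by axotomy by over 1.5 times. Quantile normalization turned the calls over all genes from 2028 higher and 484 lower at day 7 to 1396 and 2239, and from 1670 and 450 at day 14 to 1185 and 1562, and pan-neuronal scaling gave 4173 and 49 at day 7 and 2565 and 75 at day 14. A change of Sprr1a could not be resolved at its level below 0.4 FPKM.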
